A study of Mus musculus with 6 samples.

Results

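The genes described here are the 10 lipid droplet proteins and triglyceride enzymes Hilpda, G0s2, Plin2, Plin3, Plin4, Plin5, Dgat1, Dgat2, Pnpla2 and Lipe. Their RNA was sequenced in stellate cells of mouse liver. They were taken by symbol from a table of 24940 genes, and each symbol matched 1 gene. Of the 10, 8 had enough counts to be tested, among 12233 tested genes in all, and Plin4 and Plin5 did not.

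The cells were primary stellate cells from livers of female wild-type C57BL/6JBomTac mice. On day 2 after isolation the cells were given 5 µM forskolin or an equal volume of the solvent DMSO for 3 h, with 3 libraries of polyadenylated RNA in each group. Forskolin activates adenylyl cyclase and so raises cAMP inside the cell. Both groups shared the genotype, the day of treatment and its length, and the libraries of each group carry the letters A, B and C. The labels do not say whether the letters are separate mice, isolations or cultures, so p-values measure the spread between these libraries, which may be technical.

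A lipid droplet is a store of neutral lipid, mainly triglyceride and sterol or retinyl ester, under a single layer of phospholipid and coat proteins. Droplets grow when the DGAT enzymes add the last fatty acid to diacylglycerol, and shrink when adipose triglyceride lipase (ATGL, encoded by Pnpla2) and then hormone-sensitive lipase (HSL, encoded by Lipe) remove fatty acids. Quiescent stellate cells hold much of the body's vitamin A in such droplets and lose them as they turn into myofibroblasts. In adipocytes, cAMP speeds lipolysis through phosphorylation of perilipin 1 and HSL, a step that RNA levels do not record.

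Depth, the total count of a library, ran from 6753746 to 10607997 in the A and B libraries, and was 2770628 in forskolin C and 3025990 in DMSO C. A floor of 3 counts equals 0.279 CPM (counts per 1000000, on scaled library sizes) in forskolin B and 1.17 CPM in forskolin C. Across genes, log2 CPM of A and B correlated at 0.980 with forskolin and 0.972 with DMSO, against 0.925 to 0.930 for pairs within a group that included a C library. Both C libraries thus stood apart, and values of the 10 genes that moved by over 1.5 times, changed sign or changed their call without them are given both ways. The 10 stellate cell markers summed to between 1179 and 1354 CPM in DMSO libraries and between 1231 and 1491 CPM in forskolin libraries. Of these 10 markers, edgeR called 2 higher, the transcription factor gene Hand2 (log2 fold change 1.03, adjusted p = 0.0152) and the growth factor gene Hgf (1.71, adjusted p = 9.09e-04), and 0 lower. Lrat, the stellate enzyme that makes retinyl esters, was at 9.88 ± 1.87 CPM with DMSO and 6.65 ± 1.17 CPM with forskolin (SD, n = 3; adjusted p = 0.647 by edgeR). The cAMP-responsive genes Nr4a1, Crem and Pde4d rose by 3.44 ± 0.13, 3.53 ± 0.16 and 3.07 ± 0.24 log2 units (± SE), in the direction of the forskolin label.

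With forskolin, 2 of the 8 tested genes rose and 0 fell. Hilpda, a droplet protein that inhibits ATGL, was 7.00-fold higher and Dgat1, one of the enzymes of the last step of triglyceride synthesis, was 6.86-fold higher. The other 6 genes were not called, at an adjusted p of at most 0.05 from edgeR's quasi-likelihood test over all tested genes. Among all tested genes, 2.22% were called higher and 0.572% lower. At an unadjusted p of at most 0.05, 4 of the 8 were higher and 0 were lower, against 6.81% and 5.26% of all tested genes. DESeq2 and limma-voom likewise called 2 higher and 0 lower. The median log2 fold change was 0.47 over the 8 genes and 0.0050 over all tested genes. These genes were chosen with earlier results of these data known, so the shares and medians are descriptive, and no test was run over the set.

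**Figure D1:**
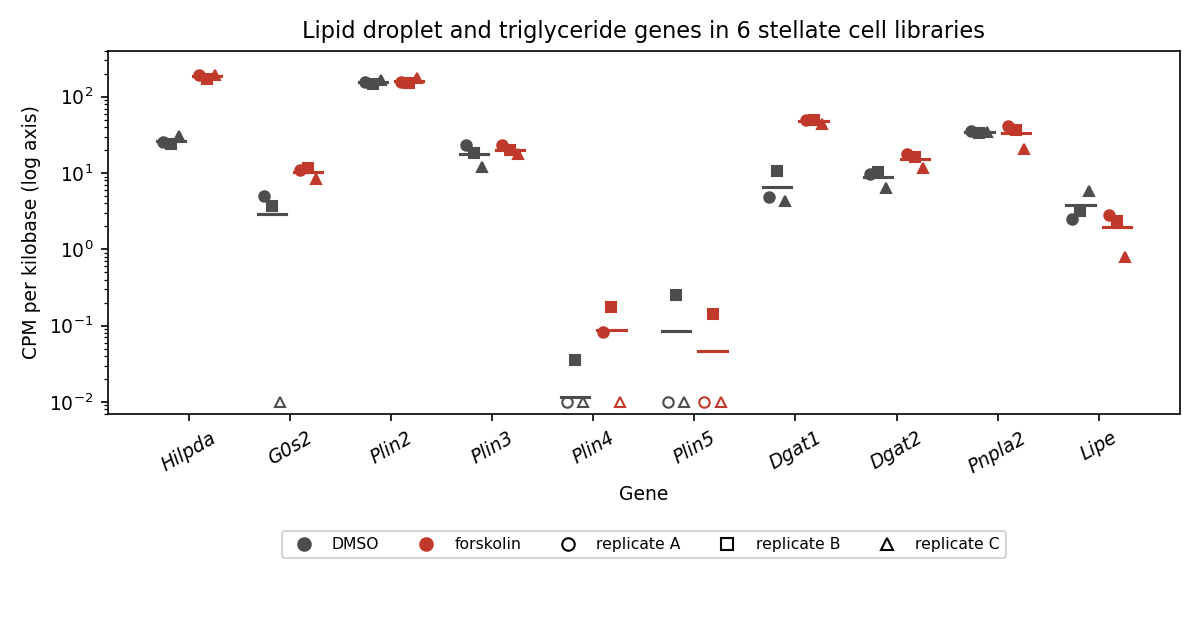
Level of each of the 10 genes in CPM per kilobase of the deposited length (log axis) in the 3 DMSO libraries (grey) and the 3 forskolin libraries (red), with the group mean as a bar. Open symbols at the bottom of the axis are libraries with 0 counts. Hilpda and Dgat1 stood higher in all 3 forskolin libraries, while Plin2 had means of 156 and 159 CPM per kilobase.

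Hilpda (NM_023516, mm10 chr6:29272626-29275449, plus strand) is a small droplet protein known from other cells as a target of hypoxia and of fatty acid load. It was measured at 25.2, 23.4 and 29.7 CPM in DMSO A, B and C, and at 189, 167 and 187 CPM in forskolin A, B and C. The lowest forskolin library was thus far above the highest DMSO library. The means were 26.1 ± 3.19 and 181 ± 12 CPM (SD, n = 3 per group), and the log2 fold change was 2.81 ± 0.14 (SE, adjusted p = 2.12e-06 by edgeR). A fold of 7.00 had limits of 6.37 and 7.69 at 1 SE. By p-value it ranked 7 of the 12233 tested genes, and by size 47 among the 272 genes called higher.

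The second inhibitor of ATGL among the 10 genes is G0s2 (NM_008059, chr1:193272160-193273188, minus strand), the product of the G0/G1 switch gene 2. It had 29, 31 and 0 counts in DMSO A, B and C, and 87, 105.5 and 18 counts in forskolin A, B and C. In CPM, these were 4.23, 3.14 and 0 with DMSO and 9.06, 9.80 and 7.00 with forskolin. The groups did not overlap, and DMSO C had no count. The log2 fold change was 1.70 ± 0.73, and the call was not made (adjusted p = 0.381 by edgeR). Without both C libraries it was 1.36 ± 0.42 with an adjusted p of 0.0429, so that G0s2 was called among the 4 deeper libraries, where 5.86% of 12597 tested genes were called higher and 3.9% lower. G0s2 lies within the span of Lamb3 on the other strand, but shares 0 exon bases with it, and Lamb3 had 0 counts in every library.

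The promoter windows of these inhibitors are shown because both genes stood higher in every forskolin library. RefSeq windows (GRCm38.p6, 250 bases before to 50 after each annotated start) were found for 8 of the 10 genes, all but Dgat1 and Dgat2, in 11 windows. They were searched on both strands for the full cAMP response element TGACGTCA, for its shorter form TGACG, and for ACGTG, the core of the hypoxia response element. The full element was in 0 of the 8 genes' windows and in 1.79% of 32851 mouse promoters. The shorter form was in 3 of the 11 windows, those of Hilpda and G0s2, and in 20.8% of promoters. ACGTG was in 3 of the 11 windows, of Hilpda, Plin2 and Lipe, and in 19.6% of promoters. Each line gives 30 bases 5′ to 3′ on the gene's strand, with the match in capitals, and CGTCA is TGACG read on the opposite strand:
Hilpda, TGACG at -68 to -64, chr6:29272545-29272574 (+): gcggcgacgctgcTGACGcagggctggatg
Hilpda, CGTCA at -246 to -242, chr6:29272376-29272405 (+): cgggCGTCActtcaagtactgcatccagca
Hilpda, ACGTG at -43 to -39, chr6:29272570-29272599 (+): ggatggccagcggACGTGccccagggcgag
G0s2, CGTCA at -246 to -242, chr1:193273409-193273438 (-): acacCGTCAcctggtggtctcctcttcagc
Plin2, ACGTG at -3 to 2, chr4:86670046-86670075 (-): cagctgggctatcACGTGgctcggaggctt
Lipe, ACGTG at -154 to -150, chr7:25396125-25396154 (-): aacagggacgaccACGTGagggggcggagg
Positions count from the annotated start that equals the deposited start of each gene. In Plin2 and Lipe the match overlaps a second one on the opposite strand, which begins 1 base upstream. A match describes letters in a window, not a bound site, and these short motifs are common in mouse promoters.

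Of the enzymes that make triglyceride, Dgat1 rose and Dgat2 was not called. Dgat1 (NM_010046, chr15:76502012-76511994, minus strand) can also esterify retinol, and differs in sequence family from Dgat2. It was measured at 9.19, 20.2 and 8.30 CPM in DMSO A, B and C, and at 95.5, 93.7 and 82.8 CPM in forskolin A, B and C. All 3 forskolin libraries lay above all 3 DMSO libraries, and DMSO B was the highest of its group. The means were 12.6 ± 6.63 and 90.7 ± 6.90 CPM (SD, n = 3), with a log2 fold change of 2.78 ± 0.30 (adjusted p = 4.60e-04 by edgeR). Without DMSO B the log2 fold change of Dgat1 was 3.37 with an adjusted p of 8.77e-05, which is more than 1.5 times larger as a fold. Hsf1, whose annotated end lies 98 bases from Dgat1 with no overlap, had a log2 fold change of -0.13 ± 0.15 (adjusted p = 0.857 by edgeR).

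Dgat2 (NM_026384, chr7:99153663-99182713, minus strand), the enzyme tied in liver to newly made fatty acids, was measured at 21.4, 23.4 and 14.4 CPM in DMSO A, B and C. In forskolin A, B and C it was at 39.7, 36.0 and 26.0 CPM. The groups did not overlap, although forskolin C was only slightly above DMSO B. The log2 fold change was 0.77 ± 0.25, which did not pass (adjusted p = 0.197 by edgeR). It passed without both C libraries (0.74, adjusted p = 0.0101) and in limma-voom with sample quality weights (0.78, adjusted p = 0.0104).

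The ratio of both enzymes within a library does not depend on its scaling. Dgat1 over Dgat2, in CPM per kilobase, was 0.502, 1.01 and 0.675 in DMSO A, B and C, and 2.82, 3.05 and 3.72 in forskolin A, B and C. The ratio thus stood near or below 1 in every DMSO library and above 2 in every forskolin library. Its mean went from 0.728 ± 0.258 to 3.19 ± 0.470 (SD, n = 3), with p = 0.1 by an exact two-sided permutation test, the smallest p that 3 against 3 libraries allow.

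The perilipins, the coat proteins of the droplet surface, were not called. Plin2 (NM_007408, chr4:86656565-86670059, minus strand), the perilipin found in most cell types, was at 296, 276 and 309 CPM in DMSO A, B and C, and at 289, 280 and 327 CPM in forskolin A, B and C. The groups overlapped almost wholly, with means of 294 ± 16.7 and 298 ± 25.0 CPM (SD, n = 3). Its log2 fold change was 0.023 ± 0.11 (adjusted p = 0.977 by edgeR), and over 19 other settings it lay between -0.041 and 0.068. Its SE was the smallest of the 8 tested genes.

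Plin3 (NM_025836, chr17:56278962-56290511, minus strand), a perilipin that moves between cytosol and droplets, was at 50.6, 39.1 and 25.9 CPM in DMSO A, B and C. In forskolin A, B and C it was at 49.8, 42.8 and 38.1 CPM. The groups overlapped, and the C library was the lowest in each. The log2 fold change of Plin3 was 0.17 ± 0.24 (adjusted p = 0.885 by edgeR), and 0.046 ± 0.16 without both C libraries (adjusted p = 0.923).

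Plin4 and Plin5, perilipins known from fat, muscle and heart, were near the detection floor and were not tested. Plin4 (NM_020568, chr17:56100591-56109802, minus strand) had 0, 2 and 0 counts in DMSO A, B and C and 4.5, 11 and 0 in forskolin A, B and C. It shares 17 exon bases with Hdgfl2 on the other strand, and the kit does not mark strand. Plin5 (NM_001077348, chr17:56111601-56117298, minus strand) had 0, 5 and 0 counts with DMSO and 0, 3 and 0 with forskolin. Both therefore had counts in the deepest libraries at most, and a change was not detectable at this depth. Of the summed level of the 4 perilipins per kilobase, Plin2 made up 87.0 to 93.2% in DMSO libraries and 86.9 to 90.8% in forskolin libraries.

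Neither lipase gene was called. Pnpla2 (NM_001163689, chr7:141455188-141460743, plus strand), whose product ATGL starts triglyceride breakdown, was at 94.3, 86.5 and 91.0 CPM in DMSO A, B and C. In forskolin A, B and C it was at 110, 96.7 and 54.0 CPM. Forskolin A and B stood above all DMSO libraries and forskolin C below all of them. The log2 fold change was -0.034 ± 0.21 (adjusted p = 0.986 by edgeR). Without forskolin C it was 0.19, and without both C libraries 0.19 ± 0.11 (adjusted p = 0.348 by edgeR), so the sign of this uncalled value rests on 1 shallow library.

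Lipe (NM_010719, chr7:25379527-25395987, minus strand), whose product HSL acts on diacylglycerol and on cholesteryl and retinyl esters, was at 8.02, 10.1 and 18.6 CPM in DMSO A, B and C. In forskolin A, B and C it was at 8.96, 7.57 and 2.53 CPM, the last from 6.5 counts. The groups overlapped, and the C libraries were the extremes of both, the highest with DMSO and the lowest with forskolin. The log2 fold change was -0.85 ± 0.50 (adjusted p = 0.591 by edgeR), and was -0.14 ± 0.35 without both C libraries (adjusted p = 0.882). With 1 library left out it lay between -1.16 and -0.45, and it was called in 0 of 18 other settings. Lipe overlaps the antisense gene 4732471J01Rik by 918 exon bases. That gene had 2, 17.5 and 3 counts in DMSO A, B and C and 20.5, 5.5 and 6 in forskolin A, B and C, and reads of the pair cannot be told apart without strand.

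**Figure D2:**
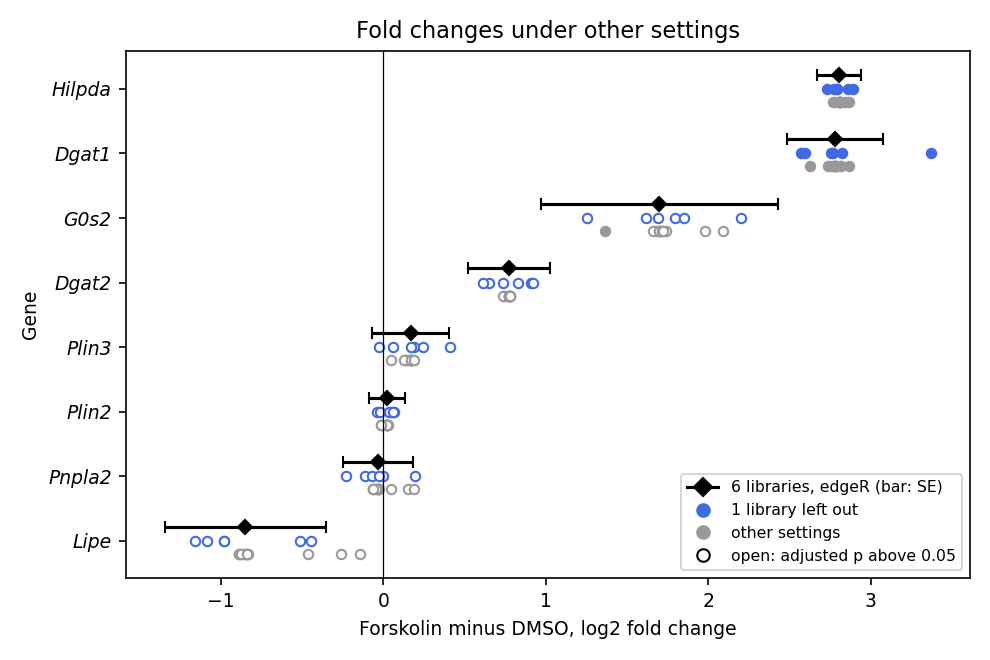
Log2 fold change of the 8 tested genes (forskolin minus DMSO) in edgeR on 6 libraries (black diamonds, bars are SE), with 1 library left out (blue) and under the other settings (grey). Filled circles have an adjusted p of at most 0.05. Hilpda and Dgat1 were called in 19 of 19 settings, and Plin2 lay between -0.041 and 0.068 in them.

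Over the 19 other settings, Hilpda lay between 2.73 and 2.89 and Dgat1 between 2.57 and 3.37, each called in 19 of 19. Dgat2 was called in 2 of 19 and G0s2 in 1 of 18. Plin2, Plin3, Pnpla2 and Lipe were called in 0 of those run for them. Forskolin libraries lay wholly above DMSO libraries for 4 of the 8 genes, namely Hilpda, Dgat1, Dgat2 and G0s2, and wholly below for 0. The same held for 10.7% of all tested genes above and 9.47% below.

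**Figure D3:**
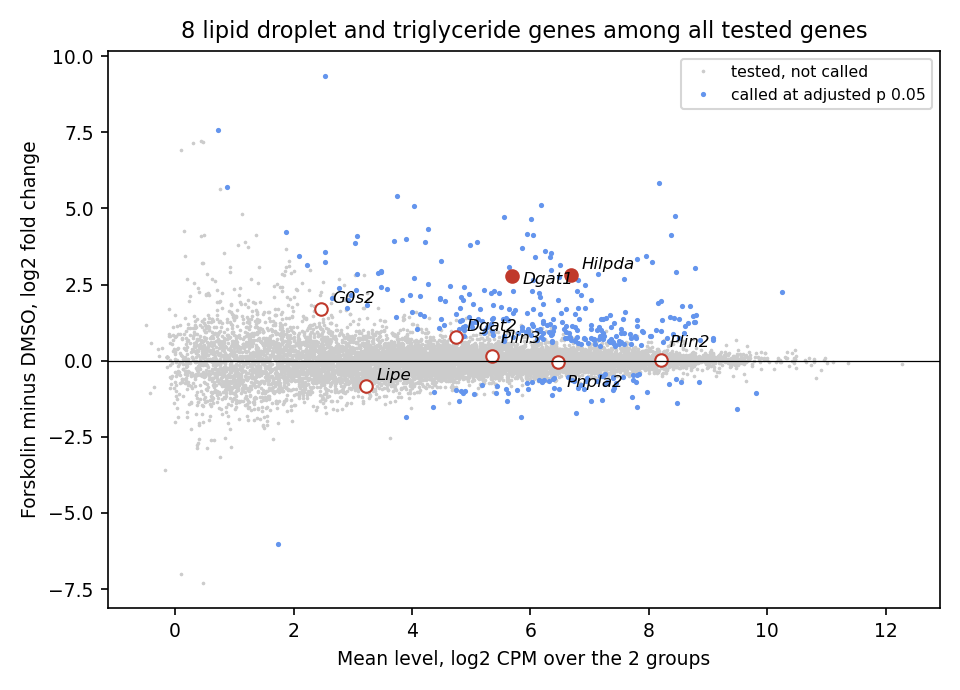
Log2 fold change (forskolin minus DMSO) against mean level in log2 CPM for all tested genes, with called genes in blue and the 8 lipid droplet and triglyceride genes ringed in red, filled where called. Hilpda at 2.81 and Dgat1 at 2.78 are the filled points.

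Levels were set side by side per kilobase of the deposited transcript length. With DMSO, Plin2 was the highest at 156 ± 8.91 CPM per kilobase (SD, n = 3), followed by Pnpla2 at 34.5 ± 1.49, Hilpda at 26.6 ± 3.26 and Plin3 at 17.9 ± 5.75. These 4 were separated from each other and from the next gene in the order of levels, in that no library of one overlapped those of its neighbour. Dgat2 at 8.82 ± 2.12, Dgat1 at 6.56 ± 3.46, Lipe at 3.82 ± 1.75 and G0s2 at 2.93 ± 2.62 followed, and each overlapped its neighbour. Plin5 and Plin4 came last, at means of 0.0852 and 0.0118.

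With forskolin, the order per kilobase was led by Hilpda at 184 ± 12.2 and Plin2 at 159 ± 13.3, whose libraries overlapped. Dgat1 came next at 47.4 ± 3.60, apart from both of its neighbours, and Pnpla2 at 33.1 ± 11.1 overlapped Plin3 at 20.3 ± 2.73. Dgat2 at 15.1 ± 3.15 overlapped G0s2 at 10.3 ± 1.74, and Lipe at 1.98 ± 1.06 was below G0s2 without overlap. Among all tested genes, the mean level of Hilpda per kilobase went from percentile 70.2 to 97.5 and that of Dgat1 from 36.1 to 82.7. Plin2 was at percentile 97.0 and 96.7.

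The inhibitors were also set against the lipase they bind. Hilpda over Pnpla2, per kilobase, was 0.716, 0.725 and 0.872 in DMSO A, B and C, and 4.60, 4.62 and 9.25 in forskolin A, B and C. Hilpda RNA was thus below Pnpla2 RNA in every DMSO library and above it in every forskolin library. The mean ratio went from 0.771 ± 0.0875 to 6.16 ± 2.68 (SD, n = 3), with p = 0.1 by an exact two-sided permutation test, and the highest forskolin ratio came from forskolin C, where Pnpla2 was low.

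G0s2 over Pnpla2 was 0.140, 0.114 and 0 in DMSO A, B and C, and 0.258, 0.317 and 0.405 in forskolin A, B and C. G0s2 RNA stayed below Pnpla2 RNA in all 6 libraries, and the groups did not overlap (p = 0.1, exact two-sided permutation test). Lipe over Pnpla2 was 0.0696, 0.0957 and 0.167 with DMSO and 0.0668, 0.0641 and 0.0382 with forskolin. Those groups lay close together, with the highest forskolin ratio just under the lowest DMSO ratio (p = 0.1, exact two-sided permutation test). Plin3 over Plin2 was 0.116 ± 0.0388 with DMSO and 0.129 ± 0.0247 with forskolin (SD, n = 3; p = 0.6, exact two-sided permutation test). Adjusted over the 5 ratios by the Benjamini-Hochberg method, the exact permutation p was 0.125 for those at 0.1.

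**Figure D4:**
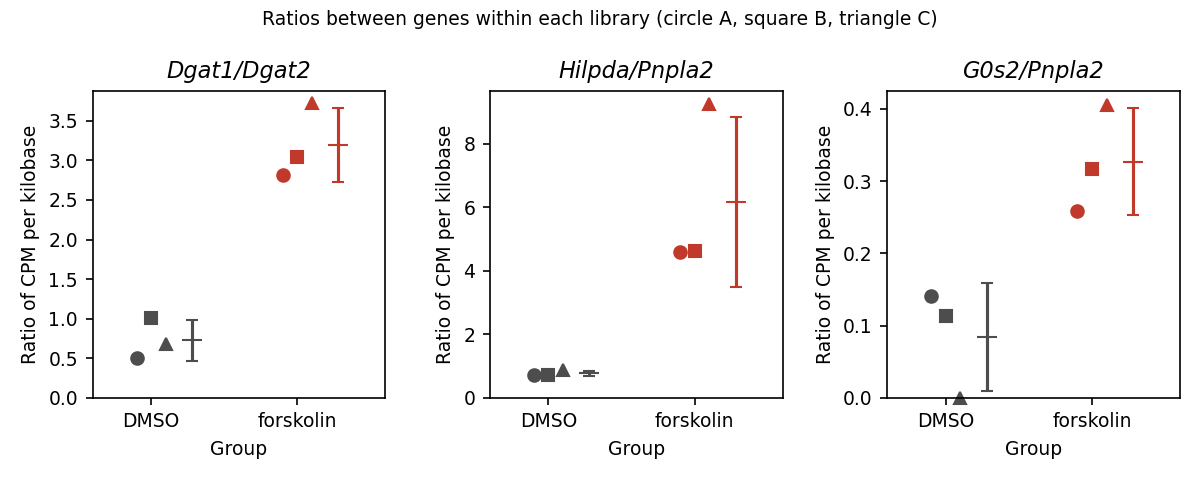
Ratio of CPM per kilobase within each library for Dgat1 over Dgat2, Hilpda over Pnpla2 and G0s2 over Pnpla2, in DMSO (grey) and forskolin (red) libraries, with the mean and SD (n = 3) beside them. In each panel the forskolin libraries lie above the DMSO libraries, with Dgat1 over Dgat2 at 2.82 to 3.72 against 0.502 to 1.01.

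Around these 10 genes, 66 others of the same pathways were listed, of which 49 were tested, 6 rose and 1 fell. That compares with 2.22% called higher and 0.572% called lower of all tested genes. At an unadjusted p of at most 0.05, 16 of the 49 were higher and 2 lower, against 6.81% and 5.26% of all tested genes. Their median log2 fold change was 0.23, forskolin libraries lay wholly above in 17 and wholly below in 3, against 10.7% and 9.47% of all tested genes. The lists too were chosen with earlier results of these data known, and no test was run over them. The count of 6 was 3 without any 1 of forskolin A, forskolin B, DMSO A and DMSO B. Over all tested genes, the calls in both directions went from 342 to 189, 207, 203 and 185 in the same order. Without both C libraries the count was 14 of 52, where 5.86% of 12597 tested genes were called higher.

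Of 13 genes of the steps up to diacylglycerol, 11 were tested, 1 rose and 0 fell, with a median log2 fold change of 0.093 and 3 higher and 0 lower at an unadjusted p of at most 0.05. DESeq2 and limma-voom called the same counts. The one that rose was Gpat3, an acyltransferase of the first step, from 22.6 ± 3.63 to 58.5 ± 11.4 CPM (SD, n = 3). Its log2 fold change was 1.36 ± 0.21 (adjusted p = 0.00428 by edgeR), and it was called in 19 of 19 other settings. Agpat4 and Gpat4, the most abundant per length, had log2 fold changes of -0.23 ± 0.14 and 0.093 ± 0.11 and were not called (adjusted p = 0.602 and 0.862 by edgeR).

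Of 9 other lipolysis genes, 7 were tested and 0 were called by edgeR, with 1 at an unadjusted p of at most 0.05 and a median log2 fold change of 0.30. Neither DESeq2 nor limma-voom called any, with 0 in each. Abhd5, which encodes the activator of ATGL that perilipins hold back, was at 132 ± 8.74 CPM with DMSO and 148 ± 22.7 CPM with forskolin. Its log2 fold change was 0.15 ± 0.13 (adjusted p = 0.766 by edgeR). Lipa, the acid lipase of lysosomes, was at 94.6 ± 2.69 and 89.3 ± 4.20 CPM, with a log2 fold change of -0.089 ± 0.11 (adjusted p = 0.872 by edgeR).

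Of 16 other droplet proteins, 10 were tested and 0 were called by edgeR, with 2 at an unadjusted p of at most 0.05 and a median log2 fold change of -0.056. DESeq2 and plain limma-voom called 0 as well, and limma-voom with quality weights called 1, the seipin gene Bscl2, which shapes droplets where they form. The most abundant per length were Aup1 and Rab8a, at log2 fold changes of -0.080 ± 0.16 and 0.14 ± 0.18 (adjusted p = 0.930 and 0.872 by edgeR). Plin1, the perilipin of fat cells, had between 0 and 16 counts in the 6 libraries and was not tested.

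Of 12 genes of fatty acid uptake and activation, 7 were tested, 2 rose and 0 fell, with a median log2 fold change of 0.63 and 5 higher and 0 lower at an unadjusted p of at most 0.05. DESeq2 and limma-voom called 3 higher and 0 lower, adding Acsl3. Both that rose encode acyl-CoA synthetases, which couple fatty acids to coenzyme A before they can be esterified. Acsl4 went from 238 ± 7.72 to 367 ± 33.7 CPM, by 0.63 ± 0.11 log2 units (adjusted p = 0.0122 by edgeR). Acsl5 went from 124 ± 24.4 to 204 ± 24.5 CPM, by 0.71 ± 0.15 log2 units (adjusted p = 0.0383 by edgeR). Both calls were lost when any 1 of the A and B libraries was left out. With forskolin A or B missing, the adjusted p of Acsl4 by edgeR was 0.0876 or 0.0747, and with DMSO A or B missing it was 0.0718 or 0.0844. That of Acsl5 was 0.198, 0.138, 0.0892 and 0.103 in the same order, and 0.0654 with DMSO C missing.

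Of 16 regulators and fasting targets, 14 were tested, 3 rose and 1 fell, with a median log2 fold change of 0.51 and 6 higher and 1 lower at an unadjusted p of at most 0.05. DESeq2 called 5 higher and limma-voom 4, each with 1 lower, and both added Cebpa, a transcription factor of liver and fat, at a log2 fold change of 0.69 ± 0.19 (adjusted p = 0.106 by edgeR). Cebpb, a transcription factor of the acute phase and of fat cell formation, rose from 82.1 ± 6.29 to 211 ± 34.9 CPM, by 1.36 ± 0.14 log2 units (adjusted p = 3.11e-04 by edgeR). Ppard, a nuclear receptor for fatty acids, rose from 189 ± 3.80 to 333 ± 27.4 CPM, by 0.82 ± 0.11 log2 units (adjusted p = 0.00177 by edgeR). Both were called in 19 of 19 other settings.

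Cpt1a, the gate of fatty acids into mitochondria, rose by 0.53 ± 0.11 log2 units, from 147 ± 11.9 to 213 ± 11.5 CPM (adjusted p = 0.0233 by edgeR). Pdk4, a kinase that restrains glucose oxidation, fell by 1.11 ± 0.20 log2 units, from 45.2 ± 4.33 to 20.6 ± 3.24 CPM (adjusted p = 0.0122 by edgeR). The Pdk4 call was lost without forskolin B (adjusted p = 0.0769) or DMSO A (0.0817). Cpt1a failed the threshold with forskolin A (0.132) or B (0.131) left out, and with DMSO A (0.154), B (0.0533) or C (0.0696) left out. Ppargc1a, a coactivator of fatty acid oxidation genes induced by cAMP in liver, was at 0.583, 0.506 and 2.03 CPM in DMSO A, B and C, and at 9.90, 5.30 and 4.86 CPM in forskolin A, B and C. Its groups did not overlap, and its log2 fold change of 2.88 ± 0.75 was not called (adjusted p = 0.0918 by edgeR), though DESeq2 called it. Hif1a, the oxygen-responsive factor known to induce Hilpda, had a log2 fold change of -0.050 ± 0.11 (adjusted p = 0.940 by edgeR), at 242 ± 23.9 CPM with DMSO. Epas1, of the same list, went from 177 ± 13.9 to 218 ± 6.79 CPM, by 0.29 ± 0.10 log2 units, and was not called (adjusted p = 0.240 by edgeR). These are RNA levels, and the activity of the Hif1a and Epas1 proteins was not tested. Ppargc1a, Cebpa, Hif1a, Epas1, Acsl3, Bscl2, Hand2 and Hgf were chosen for mention after their values were seen. Lrat, Plin1, Spp1, Krt19, Sox9 and Epcam were likewise named outside the naming rule given below.

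**Figure D5:**
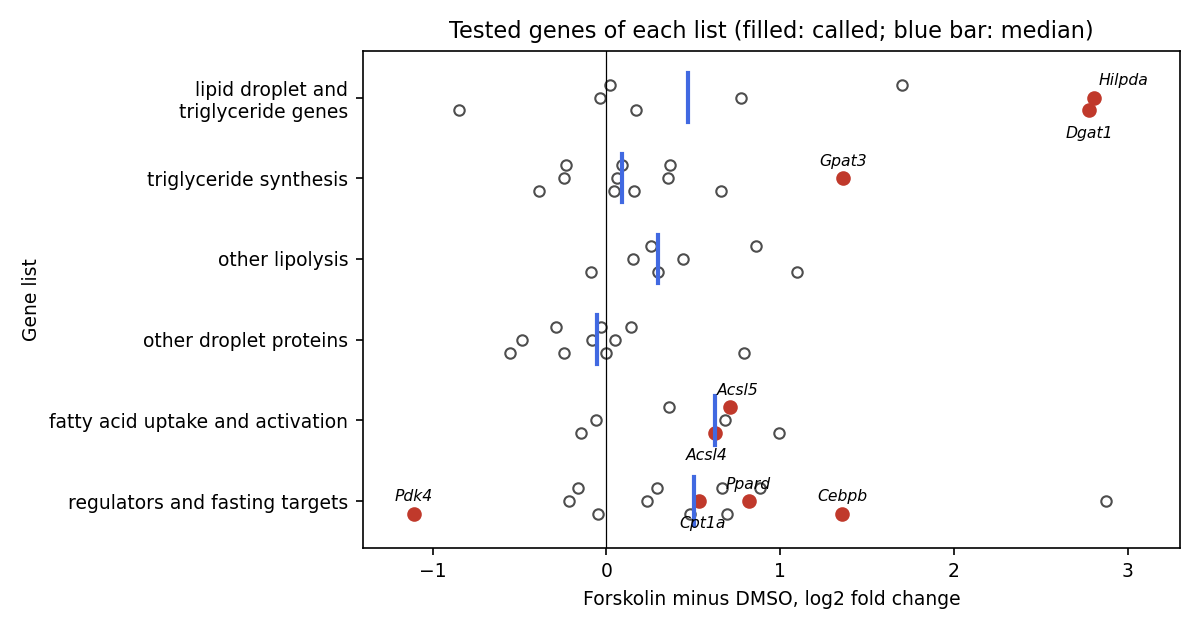
Log2 fold change (forskolin minus DMSO) of each tested gene in the 6 lists, filled and named where called, with the list's median as a blue bar. Medians run from -0.056 for other droplet proteins to 0.63 for fatty acid uptake and activation.

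Markers of other cells that could carry these genes were summed in each library. The 6 adipocyte markers, 3 of which also stand in the lists above, summed to between 1.33 and 5.08 CPM with DMSO and between 1.08 and 2.11 CPM with forskolin. The 8 hepatocyte markers summed to between 6.29 and 7.44 CPM with DMSO and between 4.80 and 18.8 CPM with forskolin, with Apoc3 at 0 in all 6 libraries. The 8 macrophage markers, with Marco at 0, ran from 18.7 to 22.6 CPM and from 13.8 to 18.5 CPM. The 8 endothelial markers ran from 5.18 to 14.5 CPM and from 8.08 to 13.4 CPM, and the 5 cholangiocyte markers, with Krt7 at 0, from 12.1 to 19.8 CPM and from 8.66 to 43.9 CPM. Of the latter, Spp1 (on scaled library sizes) was at 15.7 and 10.7 CPM in DMSO A and B. It was at 34.1 and 26.6 CPM in forskolin A and B. In those forskolin libraries, Krt19 was at 1.82 and 0.558, Sox9 at 5.21 and 5.02 and Epcam at 2.19 and 0.279 CPM. In DMSO A and B, Krt19 was at 2.99 and 0.709, Sox9 at 0 and 0.405 and Epcam at 0.875 and 0.405 CPM. In DMSO C and forskolin C, Spp1 was at 2.03 and 7.00, Sox9 at 6.10 and 0, Krt19 at 4.24 and 2.33 and Epcam at 0 and 0 CPM. In bulk samples, fewer cells of a type and less RNA per cell cannot be told apart, and the part of these cells in the results was not tested.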

How the data were processed

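RNA with poly(A) tails was sequenced from 6 libraries made with an unstranded kit, per the labels' protocols. The submitters' processing notes name STAR, HOMER and the mm10 build without versions. How reads were assigned to genes is not given in the sources used here. One deposited table holds expected counts per gene over exons, in steps of 0.5, with mm10 coordinates and lengths. Each was rounded to a whole number (a tie went to the even one), and 0 library columns lacked a sample.

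Forskolin was compared with DMSO in edgeR 4.0.16 under R 4.3.3 (filterByExpr, TMM, robust quasi-likelihood F test, no block), with Benjamini-Hochberg adjustment over 12233 genes and calls at 0.05. The common biological coefficient of variation was 0.213. CPM were scaled by TMM, but for summed markers, which are shares of the column totals. Errors are SDs (n = 3) or approximate SEs, the absolute log2 fold change over the square root of F. Levels between genes are per 1000 bases of deposited length. Floors of 3 counts cover counting error alone, as reads lacking molecular identifiers may be copies of the same molecule. The fit was tested on simulated data.

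All 10 genes are named. Of each pathway list, called genes were named (up to 4, by p), and the 2 most abundant per length where fewer than 2 were called. The genes and lists were chosen with earlier results of these data known. Alternatives to scaling were RLE factors, upper quartile factors and library sizes alone. Alternatives to the filter were none, 1 CPM in 3 libraries and 10 CPM on average. Other fits used unrounded counts, DESeq2 1.42.0, limma-voom (limma 3.58.1) with and without sample quality weights, the likelihood ratio test and a block for the letter. Each library, and both C libraries, were left out. Neighbouring genes were read from GENCODE vM21.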

Additional observations from a re-analysis of the deposited data

How the results depend on the processing

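Over 19 other settings, the calls of Hilpda and Dgat1 kept their direction and side of the threshold in 19 of 19. Depth limits the low genes in the C libraries, where 3 counts equal 1.02 CPM (DMSO C) and 1.17 CPM (forskolin C). G0s2 had 0 counts in DMSO C, and Plin4 and Plin5 had 0 in both. Of all tested genes 342 were called, and this count was 620 with no filter, 553 in DESeq2, 989 in limma-voom with quality weights, 648 in the likelihood ratio test and 1229 without both C libraries. It ranged from 185 to 485 with 1 library left out. Of the 10 genes, 2 were called higher, and 4 without both C libraries, where 5.86% of all tested genes were called higher. Of the pathway genes, 6 were called higher, against 12 with quality weights, 10 in the likelihood ratio test, 14 without both C libraries and 3 to 7 with 1 library left out. The 1 called lower ranged from 0 to 1 with 1 library left out. The cause of these moves was not tested.

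Values near 0 changed sign, and the cause was not tested. Plin2 was -0.0059 with upper quartile factors, -0.017 with library sizes alone, -0.00445 with quality weights, -0.012 without both C libraries and -0.041 to 0.068 with 1 library left out. Pnpla2 was 0.045 in limma-voom, 0.15 with quality weights, 0.19 without both C libraries and -0.23 to 0.19 with 1 library left out. Aup1 was 0.036 with quality weights, 0.055 without both C libraries and -0.21 to 0.082 with 1 library left out. With 1 library left out, Plin3 ranged from -0.028 to 0.41 and Rab8a from -0.017 to 0.27. Acsl5 and Cpt1a were not called with library sizes alone (log2 fold changes of 0.67 and 0.50).

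A replicate block for the letters A, B and C called 649 genes, with 2 of the 10 genes and 10 pathway genes higher. Deviations from the group means correlated across genes at 0.0476 for the A libraries, 0.133 for B and 0.150 for C. Forskolin A was closer to DMSO B (0.103) than to DMSO A. Forskolin B and forskolin C were each closest to the DMSO library of their own letter. Both C libraries were also the shallowest of their groups, and the part of depth in these correlations was not tested. The letters were not taken as pairs in the main fit because the labels do not say what they share.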
